A study of Mus musculus with 9 samples.

Results

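The genes described here are 34 genes of glycolysis, gluconeogenesis and the hypoxia response, chosen by name from the 21944 protein-coding genes of a table of RNA levels in mouse tumours. They comprise 4 glucose and lactate transporters, 16 glycolytic enzymes, 3 genes of the lactate and pyruvate branch, 8 genes of the hypoxia response and 3 gluconeogenic enzymes. Each of the 34 had 1 row, and its estimate carried no warning in any library. Of these, 30 reached 1 FPKM (fragments of a gene, scaled by transcript length and library depth) in at least 3 libraries and were tested. The other 4, Slc2a3, Hk2, Car9 and G6pc, lay below that limit and are given as levels only.

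Total RNA was sequenced from 9 libraries in 3 groups of 3. N134 tumours grew after subcutaneous injection of the N134 cell line. N134-RHAMMB tumours grew at the same site from a line whose name adds RHAMMB, 1 isoform of RHAMM, which binds hyaluronan. The third group holds N134-RHAMMB liver metastases. All hosts were NSG mice (NOD.Cg-PrkdcscidIl2rgtm1Wjl/SzJ), which lack mature T, B and NK cells but keep myeloid cells. Tumour cells were given subcutaneously or through a tail vein. No age, sex or treatment of the hosts was given, and no vector control is among the groups. The labels do not state whether the libraries of a group came from separate mice, so the p-values given here reflect the spread among these samples alone, and that spread may be technical.

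Glycolysis splits glucose into pyruvate, which enters the mitochondria or is reduced to lactate and exported. Gluconeogenesis runs the path backwards in liver and kidney and bypasses the irreversible steps with Pck1, Fbp1 and G6pc. When oxygen is short, the transcription factor HIF-1 binds a short DNA element in front of many glycolytic genes and raises their transcription. Normal beta cells, the insulin-producing cells of the islet, take up glucose through Slc2a2 and keep Ldha, Slc16a1 and Hk1 nearly silent, so that pyruvate goes to the mitochondria.

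Beta cell identity was checked first. All 10 beta cell markers exceeded 1 FPKM in every library, and their sum lay between 30882 and 47899 FPKM. Depth, estimated from the smallest steps between low values, was 14.7 to 18.2 M fragments per library, so that 1 fragment on a transcript of 2 kb is worth 0.0275 to 0.0341 FPKM. The metastases resembled each other less (Pearson r of 0.946 to 0.979 across genes within 1 pair of libraries) than the libraries of the other groups did (0.982 to 0.988), and metastasis 2 held the lowest value of all 9 libraries for 29.7% of the genes tested. These are bulk samples, in which fewer cells of a type and less RNA per cell cannot be told apart.

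Promoters of the members were examined for the core of the element that HIF-1 binds. The 250 bases before each start of a gene were taken from RefSeq (build GRCm38.p6), where 32 of the 34 members had an entry. They were searched on both strands for this core, ACGTG or GCGTG. Overlapping matches were counted, so that the palindrome CACGTG counts as 2. For a gene with several starts, the window with the most matches was used. A match lay in 25 of the 32 members (78.1%), against 61.0% of 9890 tested genes with a promoter and 41.5% of all 27025 genes in the promoter table. At least 3 matches were found in 9 members (28.1%), against 13.6% of the tested genes. By role, a match lay in 7 of 7 hypoxia genes with a promoter, in 12 of 16 glycolytic enzymes and in 0 of 3 gluconeogenic genes. For Slc16a1, Pgam1, Hif1a, Adm and Egln3, as for Ldha below, the bases after the start with the most matches were not found in the annotated transcripts. The members were chosen by name for these roles, so the shares describe the choice and are not a test. A match is a run of letters and does not show binding.

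The 5 stretches below were chosen for their number of matches or for the calls of their genes. Ldha and Bnip3 held 5 matches each, the most among the members, and neither passed in the main limma fit. Pfkl and Fbp1 were called in the comparisons below and held 1 and 0, and capitals mark the HIF core in all 4. In Pck1 the capitals mark TGACG, a core of the cyclic AMP response element searched on either strand, which was found in 5 of 32 members (15.6%) and 30.3% of the tested genes. Ldha (chr7:46845554-46845803, plus strand) is shown for the first of 2 RefSeq starts, and the window at the other start held 1 match. The bases after the first start were not found in the annotated transcripts of Ldha, while those after the other start were. Bnip3 lies on the minus strand at chr7:138909507-138909756, and Fbp1 on the minus strand at chr13:62888283-62888532. For Pfkl the 190 bases nearest to the start are given (chr10:78009808-78009997, minus strand). Pck1 lies on the plus strand at chr2:173152823-173153072.

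Ldha: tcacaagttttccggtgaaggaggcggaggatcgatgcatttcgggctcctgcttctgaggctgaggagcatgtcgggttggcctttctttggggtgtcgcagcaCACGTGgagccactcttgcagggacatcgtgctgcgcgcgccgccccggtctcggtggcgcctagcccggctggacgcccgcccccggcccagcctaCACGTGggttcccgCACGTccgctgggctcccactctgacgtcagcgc

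Bnip3: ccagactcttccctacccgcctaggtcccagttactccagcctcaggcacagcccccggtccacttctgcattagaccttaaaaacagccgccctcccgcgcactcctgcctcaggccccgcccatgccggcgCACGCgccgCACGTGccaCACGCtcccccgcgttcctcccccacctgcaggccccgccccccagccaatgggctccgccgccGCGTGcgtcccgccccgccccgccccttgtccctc

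Pfkl: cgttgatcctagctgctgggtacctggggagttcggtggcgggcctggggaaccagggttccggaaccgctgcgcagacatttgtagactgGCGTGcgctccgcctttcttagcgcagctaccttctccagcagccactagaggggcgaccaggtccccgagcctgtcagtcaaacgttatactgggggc

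Fbp1: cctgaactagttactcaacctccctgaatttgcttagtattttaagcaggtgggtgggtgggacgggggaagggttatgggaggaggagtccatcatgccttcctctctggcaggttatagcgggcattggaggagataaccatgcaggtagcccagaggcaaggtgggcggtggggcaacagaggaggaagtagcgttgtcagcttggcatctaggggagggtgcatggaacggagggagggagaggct

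Pck1: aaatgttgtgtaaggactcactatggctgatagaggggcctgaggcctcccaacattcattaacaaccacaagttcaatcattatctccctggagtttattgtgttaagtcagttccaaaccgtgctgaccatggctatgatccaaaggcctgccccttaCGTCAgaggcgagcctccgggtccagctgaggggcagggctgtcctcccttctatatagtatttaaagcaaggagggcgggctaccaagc

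The members covered a wide range of levels, and glycolytic enzymes held the top of it. Gapdh, the glyceraldehyde-3-phosphate dehydrogenase, averaged 293 FPKM over the 9 libraries, Pkm (muscle-type pyruvate kinase) 223, Tpi1 (triosephosphate isomerase) 145 and Aldoa (aldolase A) 133. At the other end, Car9, a carbonic anhydrase induced by hypoxia, averaged 0.0768 FPKM, near the worth of a few fragments. The 34 members together took between 0.256% and 0.380% of a library's summed FPKM, and the 16 glycolytic enzymes summed to 1292 ± 139 FPKM in the N134 tumours, 1076 ± 83.0 in the N134-RHAMMB tumours and 983 ± 44.6 in the metastases (SD, n = 3 each).

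**Figure D1:**
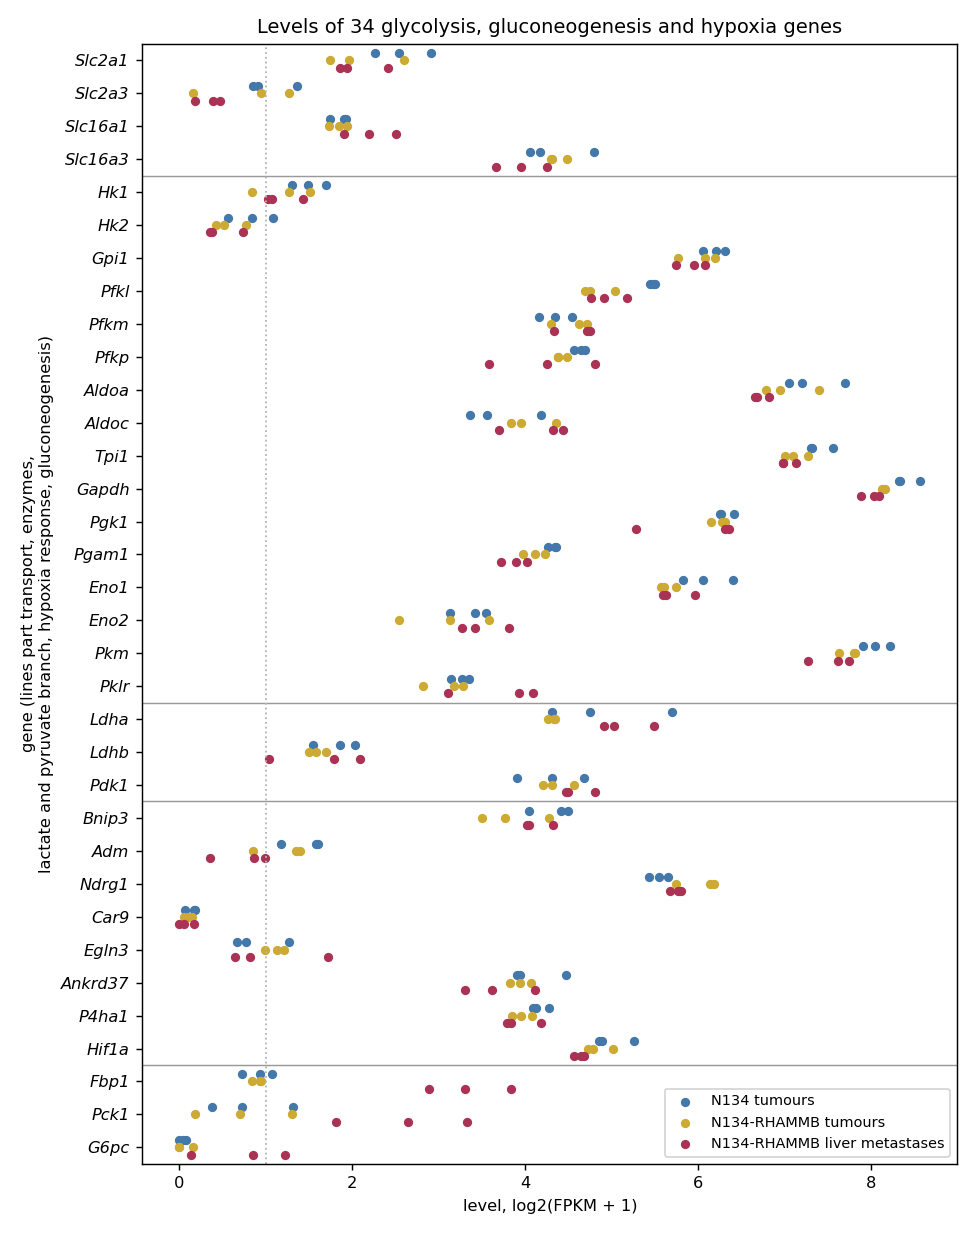
Level of each of the 34 genes as log2(FPKM + 1) on the horizontal axis, 1 point per library, coloured by group; the dotted line stands at 1 FPKM and the horizontal lines part the roles. Gapdh, Pkm, Tpi1 and Aldoa lie furthest to the right, and the metastases stand clear of both tumour groups in the rows of Fbp1 and Pck1.

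N134-RHAMMB tumours were compared with N134 tumours to ask what changed with RHAMMB at the same site. None of the 30 tested members was called higher or lower (limma, adjusted p below 0.05). The background was low too, since only 0.194% of the 12854 genes tested were called. At an unadjusted p below 0.05 there were 7 members, Pfkl, Tpi1, Gapdh, Eno1, Pkm, Bnip3 and Ndrg1, beside 12.8% of all genes. Log2 differences were negative for 24 of the 30 members, with a median of -0.21 against 0.01 for all genes. Among the glycolytic enzymes 13 of 15 were negative, with a median of -0.26.

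Pfkl, the liver-type phosphofructokinase at the committed step of glycolysis (ENSMUSG00000020277, chr10:77986947-78010083), had the smallest p of the members. N134 tumours 1, 2 and 3 gave 43.7, 42.4 and 44.2 FPKM, and N134-RHAMMB tumours 1, 2 and 4 gave 25.9, 24.9 and 31.9 FPKM. The groups did not overlap, and the ratio of their means was 0.634. On the log2(FPKM + 1) scale the difference was -0.65 (SE 0.13, 95% interval -0.94 to -0.35, adjusted p = 0.110). Without metastasis 2, which enters only through the shared estimate of the spread, the adjusted p of Pfkl was 0.0283, and in a fit of these 2 groups alone it was 0.0393.

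The groups stood apart, with every N134-RHAMMB value below every N134 value, for 8 members: Pfkl, Pfkp, Tpi1, Gapdh, Pgam1, Eno1, Pkm and P4ha1. Such a gap in this direction was found for 11.3% of all genes tested, and 7 of the 8 are glycolytic enzymes. Ndrg1, a stress and hypoxia response gene, was the only member apart in the other direction, where 14.0% of all genes stood. The N134 tumours had 49.2, 42.0 and 45.6 FPKM of Ndrg1, and the N134-RHAMMB tumours 69.1, 52.5 and 71.7 FPKM. The log2 difference of Ndrg1 was 0.48 (SE 0.13, adjusted p = 0.174).

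Glyceraldehyde-3-phosphate dehydrogenase shows how small most of these gaps were. Gapdh read 319, 379 and 322 FPKM in the N134 tumours and 279, 283 and 286 FPKM in the N134-RHAMMB tumours. Every N134-RHAMMB value was below every N134 value, with a log2 difference of -0.26 (adjusted p = 0.319). Eno1 (enolase 1) read 55.5, 83.9 and 65.4 FPKM against 46.5, 47.8 and 52.8 FPKM, a log2 difference of -0.45 (adjusted p = 0.272).

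Several N134 values were raised by 1 library. N134 tumour 2 held the highest value of all 9 libraries for 13 of the 30 members, 8 of them glycolytic enzymes (Hk1, Gpi1, Aldoa, Tpi1, Gapdh, Pgk1, Eno1 and Pkm), while it held the highest value for 7.19% of all genes tested. Without it, Gapdh differed by -0.18 (adjusted p = 0.693) and the median of the 30 members was -0.19. The same library had the highest summed erythroid markers (1947 FPKM, against 283 to 1260 in the others) and macrophage markers (807 FPKM, against 221 to 570). Their part in the enzyme levels was not tested.

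**Figure D2:**
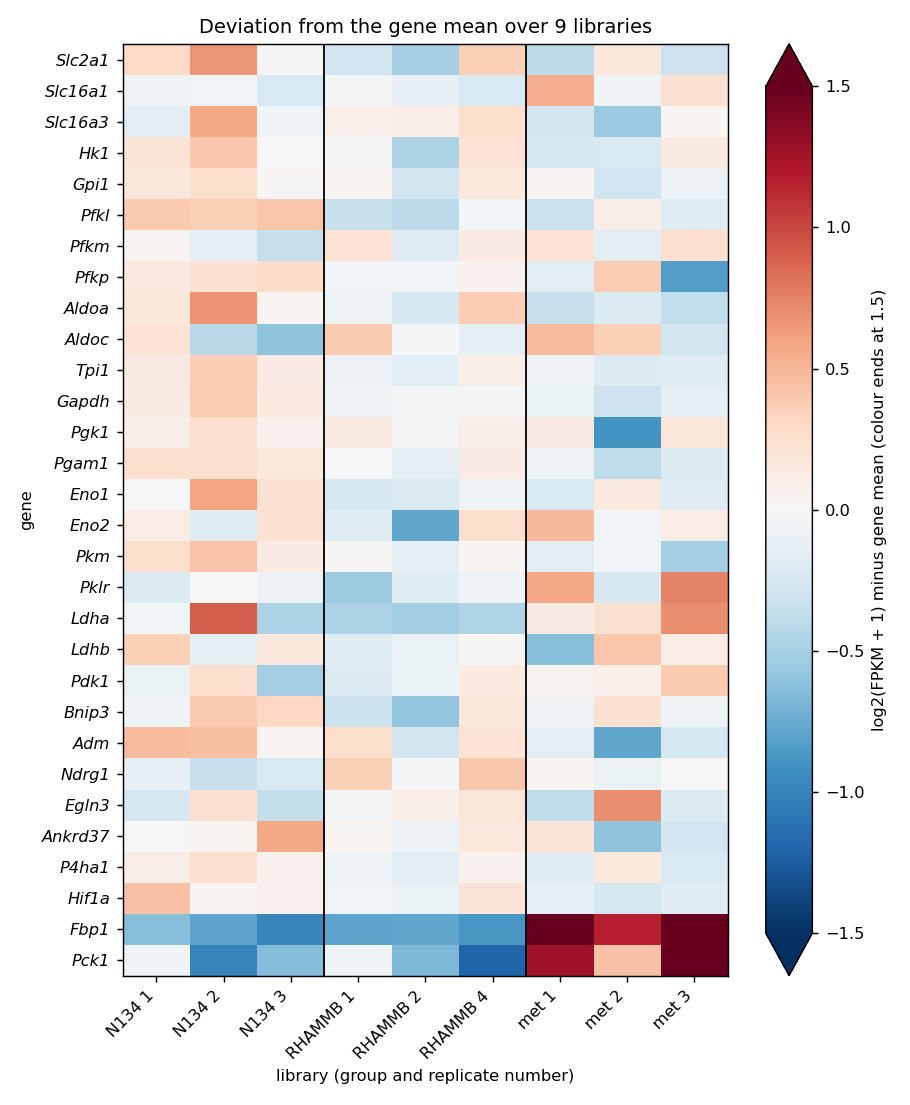
Colour map of log2(FPKM + 1) minus the gene's mean over the 9 libraries, with the 30 tested genes in rows and libraries in columns; the colour scale ends at 1.5 in either direction. The column of N134 tumour 2 holds the highest value in 13 rows, and Fbp1 and Pck1 are raised in the 3 metastasis columns alone.

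Liver metastases were compared with N134-RHAMMB tumours under the skin to ask what differs at the liver site. The metastases carried more RNA of the gluconeogenic genes Fbp1 and Pck1, about 10.8 and 7.49 times the mean of the subcutaneous tumours. These 2 of the 30 tested members were called higher and 0 lower, beside 5.04% of all genes called higher and 1.52% lower. Both met the limit of 1 FPKM in at least 3 libraries only through the metastases, where they are high. Among the tumours under the skin, Fbp1 reached 1 FPKM in N134 tumour 1 alone. Pck1 reached it in N134 tumour 1 and N134-RHAMMB tumour 1. No glycolytic enzyme, transporter or hypoxia gene among the members passed, while 3 members had groups apart upwards (Ldha, Fbp1 and Pck1, with 8.80% of all genes) and 3 downwards (Slc16a3, Gapdh and Hif1a, with 11.0% of all genes).

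Fbp1, fructose-1,6-bisphosphatase, reverses the phosphofructokinase step (ENSMUSG00000069805, chr13:62864753-62888282). Metastases 1, 2 and 3 had 8.90, 6.38 and 13.2 FPKM. In the N134-RHAMMB tumours it read 0.906, 0.926 and 0.798 FPKM, and in the N134 tumours 1.11, 0.911 and 0.656 FPKM. The lowest metastasis was thus above every subcutaneous tumour, and the 2 tumour groups overlapped. The log2 difference was 2.43 (SE 0.22, 95% interval 1.93 to 2.93, adjusted p = 3.11e-05) from the N134-RHAMMB tumours and 2.43 (SE 0.22, adjusted p = 3.17e-05) from the N134 tumours. It was called in 19 of 19 alternative analyses of each comparison in which it could be tested.

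Pck1, the cytosolic phosphoenolpyruvate carboxykinase that opens gluconeogenesis (ENSMUSG00000027513, chr2:173153048-173159273), read 5.27, 2.52 and 8.999 FPKM in the metastases. The N134-RHAMMB tumours had 1.48, 0.632 and 0.133 FPKM and the N134 tumours 1.49, 0.295 and 0.653 FPKM. No metastasis value overlapped with a tumour value, but the spread within each group was wide. The log2 difference was 1.86 (SE 0.41, 95% interval 0.96 to 2.77, adjusted p = 0.0185) from the N134-RHAMMB tumours and 1.79 (SE 0.41, adjusted p = 0.0183) from the N134 tumours. Against the N134-RHAMMB tumours the call was lost without N134-RHAMMB tumour 2 (adjusted p = 0.0663) or without tumour 4 of the group (0.0786). It was also lost without metastasis 1 (0.0630) or metastasis 3 (0.0607). Against the N134 tumours it was lost without N134 tumour 2 (adjusted p = 0.0808) or 3 (0.0611), and without metastasis 1 (0.0547) or 3 (0.0583).

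G6pc, the liver glucose-6-phosphatase that releases free glucose, was below the level needed for a test. Its values were 0.806, 0.102 and 1.33 FPKM in the metastases, 0.117, 0 and 0 FPKM in the N134-RHAMMB tumours and 0.0278, 0.0556 and 0 FPKM in the N134 tumours. Metastases 1 and 3 were above every tumour, and metastasis 2 was below N134-RHAMMB tumour 1. In every library most glucose-6-phosphatase RNA came from G6pc2, the islet paralog, which took 91.9% to 97.3% of the summed FPKM of its family.

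Hepatocyte RNA moved with these genes. The 13 hepatocyte markers other than Ttr, which islet cells also make, summed to 4147, 4376 and 4348 FPKM in the metastases and to between 12.8 and 26.6 FPKM in the 6 subcutaneous tumours. All 14 hepatocyte markers were called higher in the metastases than in the N134-RHAMMB tumours. The marker sum was nearly flat over the metastases, and the gluconeogenic genes were not. Per 1000 FPKM of those markers, Fbp1 stood at 2.15, 1.46 and 3.04 FPKM and Pck1 at 1.27, 0.575 and 2.07 FPKM in metastases 1, 2 and 3. For both genes metastasis 2 was lowest and metastasis 3 highest, and the part of hepatocyte RNA in the difference was not tested.

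**Figure D3:**
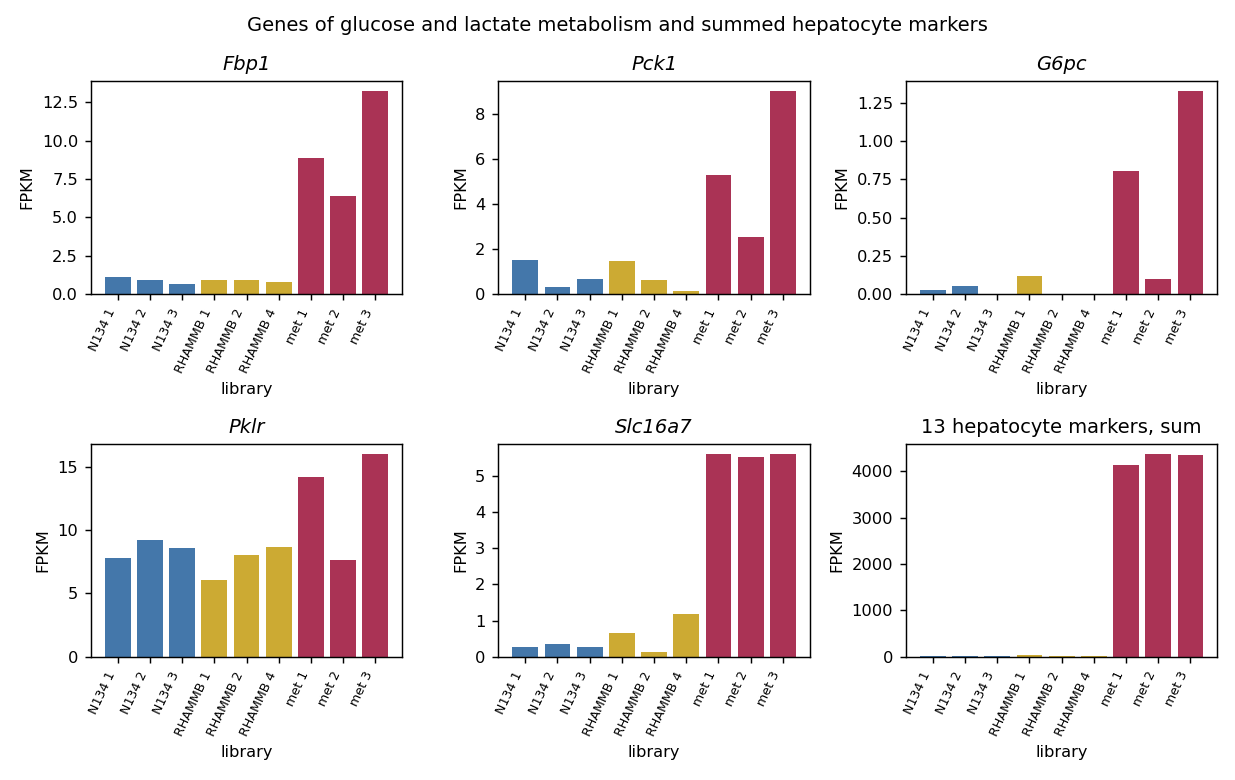
Bars give FPKM in each of the 9 libraries for genes of glucose and lactate metabolism and for the summed hepatocyte markers, coloured by group, with every axis starting at 0. The marker sum is about level over the 3 metastases (4147 to 4376 FPKM), while Fbp1 varies from 6.38 to 13.2 FPKM and Pck1 from 2.52 to 8.999 FPKM.

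Pklr, the pyruvate kinase of liver and red cells, is also present in beta cells. It read 14.2, 7.64 and 16.0 FPKM in the metastases and 6.04, 8.02 and 8.70 FPKM in the N134-RHAMMB tumours. Metastases 1 and 3 were above all 6 tumours, and metastasis 2 lay within the tumour range. The log2 difference was 0.62 (SE 0.24, adjusted p = 0.214), and without metastasis 2 it was 0.92 (adjusted p = 0.00567).

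Liver metastases were also compared with N134 tumours, so that cell line and site differ together. Fbp1 and Pck1, which met the limit only through the metastases, were called higher, and 3 glycolytic enzymes, Pfkl, Gapdh and Pkm, were called lower. Over all genes tested 5.69% were called higher and 4.23% lower. The median log2 difference was -0.30 over the 30 members and -0.36 over the 15 enzymes, against -0.03 for all genes. This comparison shares its metastases with the one before and its N134 tumours with the first, so the 3 sets of values are not independent.

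Gapdh (ENSMUSG00000057666, chr6:125161715-125166467) stood at 272, 234 and 261 FPKM in the metastases, all below the lowest N134 tumour at 319 FPKM. The log2 difference was -0.41 (SE 0.10, 95% interval -0.63 to -0.18, adjusted p = 0.0277). Without N134 tumour 2 it was -0.33 (adjusted p = 0.122), and the call of Gapdh was also lost without N134 tumour 1 (0.0501) or 3 (0.0572). Leaving out N134-RHAMMB tumour 1 (0.0537) or the third metastasis (0.0511) ended it too. Scaling by median ratios gave -0.36 (adjusted p = 0.0990).

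Pkm (ENSMUSG00000032294, chr9:59656368-59679375) makes both the M1 and the M2 form of pyruvate kinase by splicing, which gene-level values do not separate. It read 264, 296 and 239 FPKM in the N134 tumours, 222, 198 and 223 FPKM in the N134-RHAMMB tumours and 196, 213 and 153 FPKM in the metastases. Every metastasis lay below every N134 tumour, with a log2 difference of -0.51 (SE 0.13, 95% interval -0.81 to -0.21, adjusted p = 0.0387). The call of Pkm was kept without N134 tumour 3 (adjusted p = 0.0479) or metastasis 2 (0.0123) and was lost without each of the other 7 libraries in turn, with adjusted p-values from 0.0536 to 0.155.

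Pfkl read 26.2, 35.3 and 29.0 FPKM in the metastases, below the 42.4 to 44.2 FPKM of the N134 tumours and overlapping with the 24.9 to 31.9 FPKM of the N134-RHAMMB tumours. The log2 difference from the N134 tumours was -0.52 (SE 0.13, 95% interval -0.82 to -0.23, adjusted p = 0.0333). The call of Pfkl was lost without any 1 of the N134 tumours (adjusted p from 0.0887 to 0.108). It was lost as well without N134-RHAMMB tumour 1 (0.0552), and without metastasis 1 (0.102) or 3 (0.0878). From the N134-RHAMMB tumours to the metastases the difference of Pfkl was 0.12 (95% interval -0.17 to 0.42, adjusted p = 0.749).

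Groups stood apart downwards for 8 of the 30 members, Pfkl, Aldoa, Tpi1, Gapdh, Pgam1, Pkm, Adm and Hif1a, beside 14.3% of all genes. They stood apart upwards for Ndrg1, Fbp1 and Pck1, beside 11.4% of all genes. Close to the threshold without passing it were Pgam1, the phosphoglycerate mutase, at -0.44 (adjusted p = 0.0514), and Aldoa at -0.60 (adjusted p = 0.0789). Leaving out metastasis 1 brought Pgam1 past it (0.0463), and leaving out N134-RHAMMB tumour 4 brought Aldoa past it (0.0499).

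**Figure D4:**
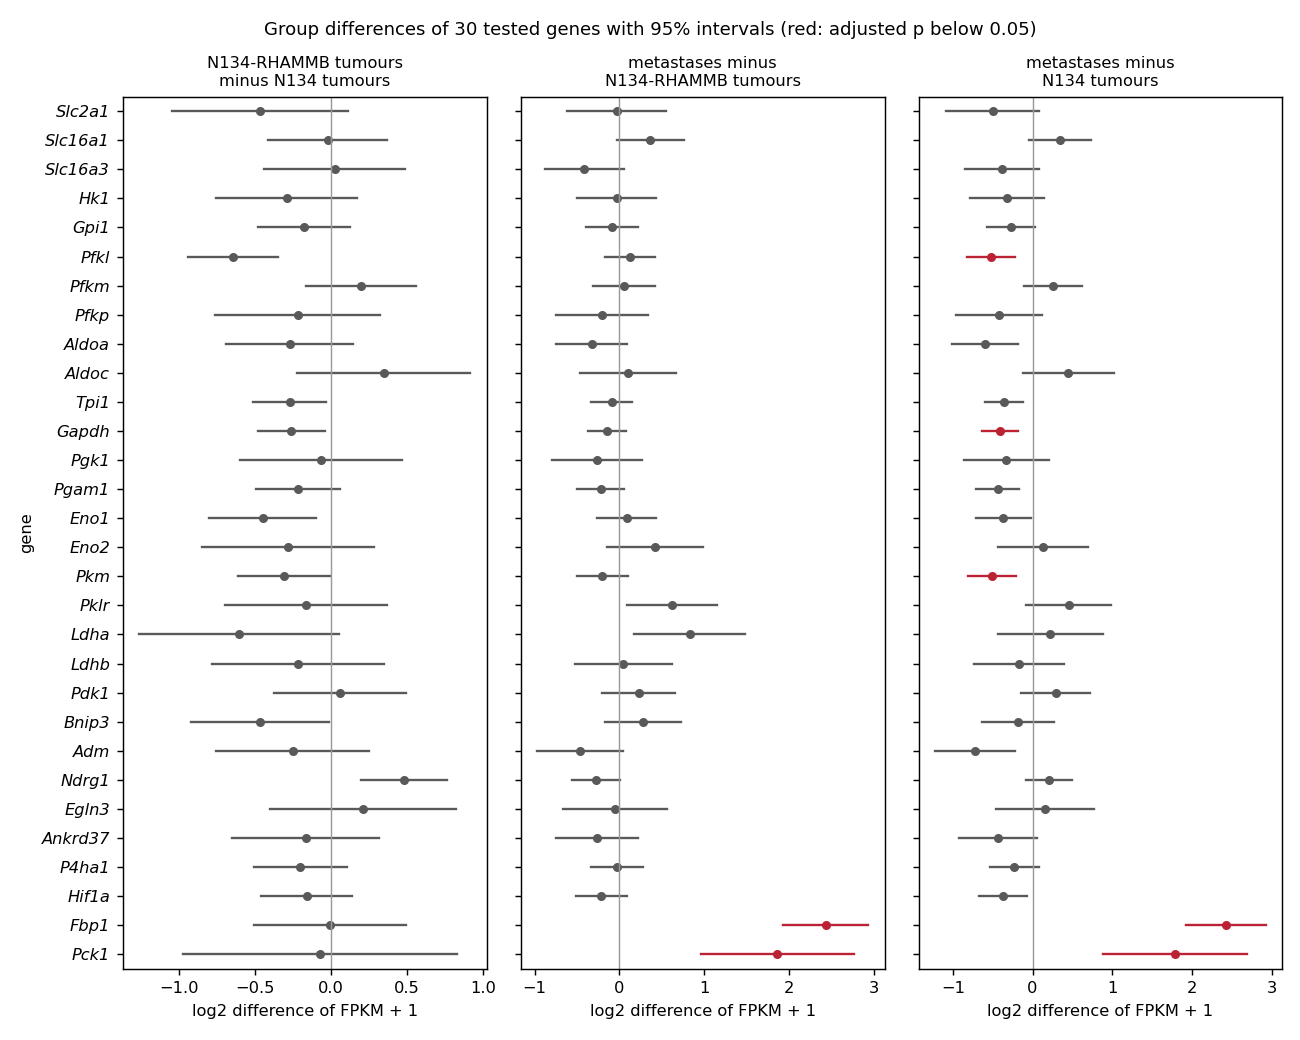
Log2 differences of the 30 tested genes in the 3 comparisons, with 95% intervals from limma; red marks an adjusted p below 0.05. No gene is red in N134-RHAMMB against N134 tumours, Fbp1 and Pck1 are red on the right in both comparisons of the metastases, and Pfkl, Gapdh and Pkm are red on the left against the N134 tumours.

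Summed macrophage, fibroblast and erythroid markers were also highest in the N134 tumours. Macrophage markers summed to 472 to 807 FPKM in the N134 tumours, 343 to 460 FPKM in the N134-RHAMMB tumours and 221 to 370 FPKM in the metastases. Of these, 8 of 10 were called lower in the metastases than in the N134 tumours, beside 4.23% of all genes. Fibroblast markers summed to 661 to 919, 299 to 523 and 218 to 451 FPKM, with 5 of 10 called lower in the metastases than in the N134 tumours. Most of that sum was Col3a1 (means of 530, 266 and 211 FPKM), while Dcn averaged 26.8, 12.3 and 30.3 FPKM. From N134-RHAMMB tumours to metastases, 5 fibroblast markers rose and 5 fell, with 1 called higher and 1 lower. Of 8 endothelial markers, 4 were higher and 4 lower in the metastases than in the N134 tumours, with 0 called. Erythroid markers summed to 973 to 1947, 397 to 862 and 283 to 383 FPKM. The part of these cells in the levels of Gapdh, Pkm and Pfkl was not tested.

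Ldha, lactate dehydrogenase A, is one of the genes that normal beta cells keep nearly silent (ENSMUSG00000063229, chr7:46841475-46855627). It was present in all 9 libraries, at 25.8, 50.9 and 18.9 FPKM in the N134 tumours, 19.2, 18.3 and 19.3 FPKM in the N134-RHAMMB tumours and 29.1, 31.5 and 44.1 FPKM in the metastases. The N134-RHAMMB values were tight and all below every metastasis, while the N134 tumours spanned nearly the whole range. From N134-RHAMMB tumours to metastases the log2 difference was 0.83 (SE 0.29, adjusted p = 0.167). It passed without N134 tumour 2, which is not part of that comparison but widens the shared spread (adjusted p = 0.0213), and in a fit of these 2 groups alone (0.0237).

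Between N134-RHAMMB and N134 tumours Ldha differed by -0.61 (95% interval -1.26 to 0.05, adjusted p = 0.427), and by -0.22 without N134 tumour 2. Ldhb, the heart-type subunit, stayed between 1.05 and 3.26 FPKM. Ldha thus took 87.8% to 96.5% of the lactate dehydrogenase FPKM in every library. Hepatocytes, macrophages and fibroblasts also express Ldha, and how much of its RNA came from tumour cells was not tested.

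Slc16a1 (MCT1), the monocarboxylate carrier that normal beta cells lack, was far lower. Its levels were 2.74, 2.81 and 2.34 FPKM in the N134 tumours, 2.82, 2.59 and 2.32 FPKM in the N134-RHAMMB tumours and 4.69, 2.75 and 3.58 FPKM in the metastases. Metastases 1 and 3 were above all tumours and metastasis 2 was within their range. The log2 difference between metastases and N134-RHAMMB tumours was 0.37 (95% interval -0.02 to 0.76, adjusted p = 0.337).

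Hk1, the high-affinity hexokinase, read 1.82, 2.24 and 1.47 FPKM in the N134 tumours, 1.41, 0.784 and 1.86 FPKM in the N134-RHAMMB tumours and 1.04, 1.10 and 1.69 FPKM in the metastases. The 3 groups overlapped, and no comparison of Hk1 passed. Hk2, the hexokinase of growing and insulin-responsive cells, lay between 0.277 and 1.13 FPKM and was not tested.

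The list of 13 genes kept nearly silent in normal beta cells, which includes Ldha, Slc16a1 and Hk1, had 5 members called higher in the metastases than in the N134-RHAMMB tumours and 0 lower, beside 5.04% and 1.52% of all genes. The hepatocyte markers rose in the same comparison, from at most 26.6 FPKM to at least 4147 FPKM in sum, and their part in these 5 calls was not tested. Mgst1, a glutathione transferase abundant in liver, rose most, by 4.72 on the log2 scale (adjusted p = 2.26e-06), from 17.2, 6.15 and 14.6 FPKM to 274, 344 and 390 FPKM. Igfbp4, an insulin-like growth factor binding protein, rose by 2.24 (adjusted p = 4.66e-05), and Oat, Cxcl12 and Zfp36l1 were the other 3. When N134-RHAMMB tumour 1 was left out, Cxcl12 (adjusted p = 0.0563) and Zfp36l1 (0.0552) no longer passed, and leaving out tumour 2 of that group ended the call of Zfp36l1 too (0.0557). Between N134-RHAMMB and N134 tumours only Pdgfra, a fibroblast receptor, was called, at -1.36 (adjusted p = 0.0139); leaving out any 1 of the N134 tumours, or N134-RHAMMB tumour 2 or 4, ended the call (adjusted p from 0.0519 to 0.0998). All 13 differences of that comparison were negative, with a median of -0.46, while over all genes tested 47.4% were negative and the median was 0.01. Macrophage markers (10 of 10 negative, median -0.67) and fibroblast markers (9 of 10 negative, median -1.02) were lower in the same libraries, and their part was not tested.

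The other glycolytic enzymes passed in no comparison of the main limma fit. Gpi1, glucose-6-phosphate isomerase, ranged from 52.4 to 78.1 FPKM over the 9 libraries and Tpi1 from 125 to 187 FPKM, highest in the N134 tumours. Pfkp, the platelet phosphofructokinase, ranged from 11.0 FPKM in metastasis 3 to 27.0 FPKM in metastasis 2, so its extremes lay within 1 group. Leaving out metastasis 2 brought its difference from the N134 tumours to -0.72 (adjusted p = 0.0250), against -0.42 (adjusted p = 0.378) with it.

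Pgk1, the phosphoglycerate kinase, was even except in metastasis 2, which read 37.8 FPKM beside 78.0 and 80.9 FPKM in the other metastases and 69.9 to 84.4 FPKM in the tumours. The brain-type paralogs Aldoc and Eno2, which neuroendocrine cells also express, ranged from 9.32 to 20.7 FPKM and from 4.80 to 13.01 FPKM. The groups of Aldoc and of Eno2 overlapped in all 3 comparisons.

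Paralogs show which form of an enzyme dominates, since FPKM is scaled by length and can be compared between genes. Among the phosphofructokinases, Pfkl took 50.1% ± 1.19 of the family's FPKM in the N134 tumours, 39.1% ± 2.44 in the N134-RHAMMB tumours and 41.7% ± 3.50 in the metastases (SD, n = 3 each). The share of Pfkm, the muscle form, was 22.4% ± 2.78, 32.0% ± 3.25 and 33.1% ± 8.38. No value of the Pfkl share in the N134 tumours (49.3% to 51.5%) overlapped with the other 6 libraries (36.6% to 44.0%). In FPKM, Pfkm differed by 0.20 between N134-RHAMMB and N134 tumours (adjusted p = 0.659).

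Slc16a3 (MCT4), the exporter of glycolytic cells, took 85.8% ± 1.60 of the carriers' FPKM in the N134-RHAMMB tumours and 61.0% ± 4.55 in the metastases. Slc16a7 (MCT2) read 5.61, 5.51 and 5.60 FPKM in the metastases, against 0.129 to 1.19 FPKM in the tumours under the skin. Per 1000 FPKM of the hepatocyte markers, Slc16a7 stood at 1.35, 1.26 and 1.29 FPKM in metastases 1, 2 and 3. The marker sum was itself nearly flat over the metastases, and the part of hepatocyte RNA in the level of Slc16a7 was not tested. The log2 difference of Slc16a7 from the N134-RHAMMB tumours was 2.04 (SE 0.22, adjusted p = 0.000105). Slc16a3 itself did not pass (-0.41, adjusted p = 0.379), with 18.6, 18.9 and 21.4 FPKM in N134-RHAMMB tumours against 14.4, 11.6 and 18.1 FPKM in metastases.

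**Figure D5:**
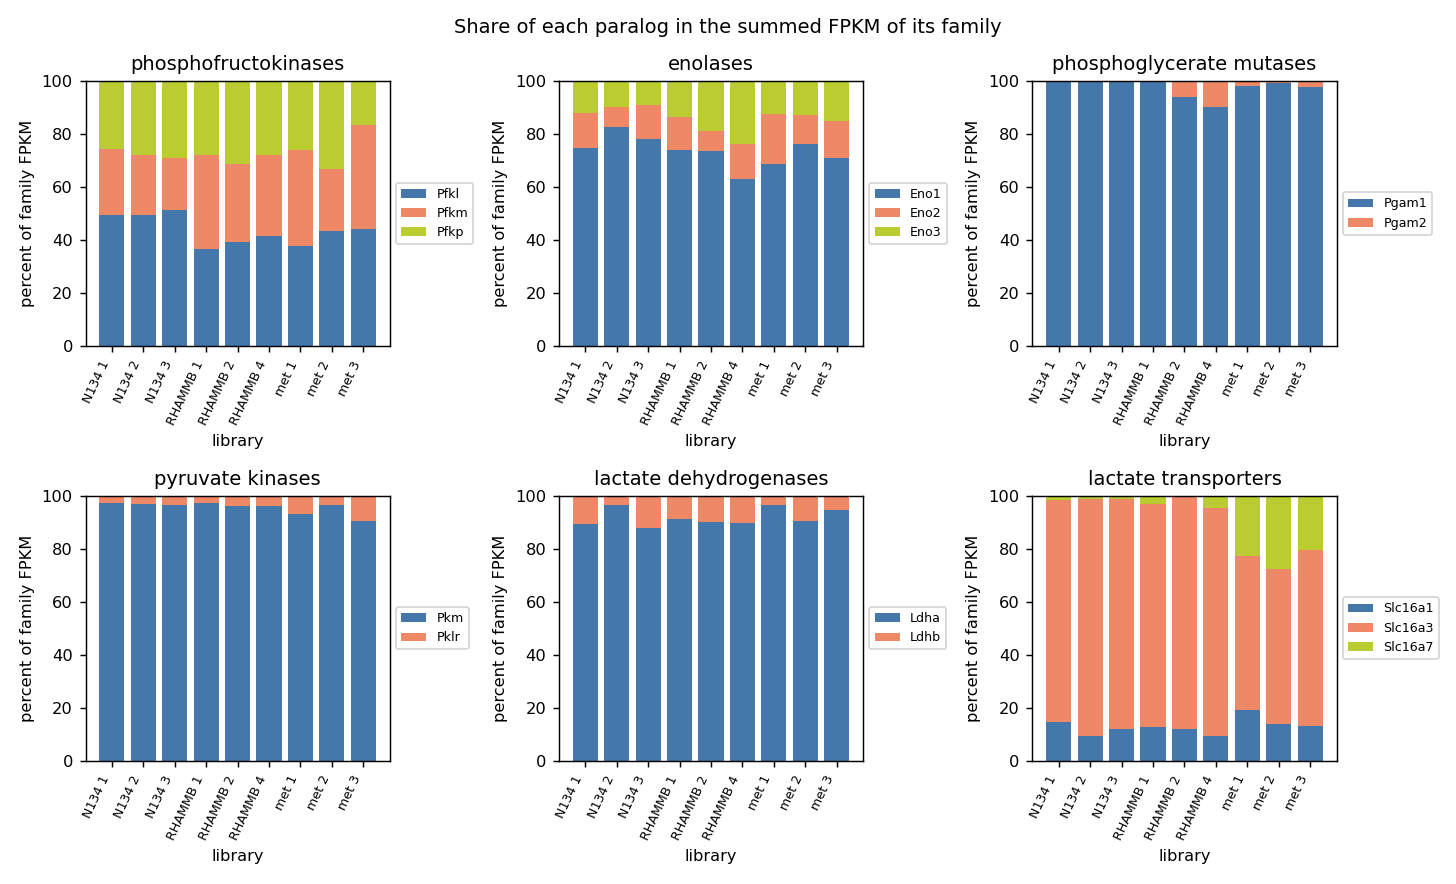
Stacked bars give the percentage of each paralog in the summed FPKM of its family, for 9 libraries in order of group. Pfkl takes a larger share in the 3 N134 tumours (49.3% to 51.5%) than in the other libraries, Eno3 and Pgam2 take their largest shares in N134-RHAMMB tumours 2 and 4, and Slc16a7 takes a larger share in the metastases.

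Of the RNA of 4 glucose transporters, most came from Slc2a2, the low-affinity carrier of beta cells and liver, which took 71.3% to 97.1% of their summed FPKM. Slc2a1, the widespread high-affinity carrier, read 4.83, 6.50 and 3.81 FPKM in the N134 tumours, 2.89, 2.35 and 5.08 FPKM in the N134-RHAMMB tumours and 2.62, 4.33 and 2.84 FPKM in the metastases. Its 3 groups overlapped, and no comparison passed. Slc2a3, the neuronal and leukocyte form, lay between 0.117 and 1.56 FPKM.

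The muscle forms of enolase and phosphoglycerate mutase took their largest shares in 2 libraries. N134-RHAMMB tumours 2 and 4 had summed skeletal muscle markers of 186 and 228 FPKM, against at most 20.2 FPKM elsewhere. In the same 2 libraries Eno3, the muscle enolase, took 18.8% and 23.7% of the enolase FPKM, against 9.23% to 15.0% in the others. Pgam2, the muscle mutase, took 6.13% and 9.71% of its family and at most 2.35% elsewhere. The part of muscle RNA in these shares and in the group differences was not tested.

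None of the hypoxia members tested passed in any comparison of the main limma fit. Hif1a, the oxygen-regulated subunit of HIF-1 (ENSMUSG00000021109, chr12:73901375-73947530), is controlled mainly at the protein level. The N134 tumours had 37.3, 27.9 and 28.6 FPKM, the N134-RHAMMB tumours 26.5, 25.5 and 31.4 FPKM and the metastases 24.7, 22.7 and 24.0 FPKM. The metastases were below all 6 tumours, with a log2 difference of -0.37 from the N134 tumours (SE 0.13, adjusted p = 0.132) and -0.21 from the N134-RHAMMB tumours (adjusted p = 0.507).

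Of the HIF targets, Bnip3, a mitophagy receptor, had means of 19.1 FPKM (N134), 13.7 FPKM (N134-RHAMMB) and 16.6 FPKM (metastases), and P4ha1, a collagen prolyl hydroxylase subunit, 16.9, 14.6 and 14.4 FPKM. Pdk1, the kinase that holds back pyruvate dehydrogenase, averaged 19.1, 19.6 and 23.2 FPKM. Adm (adrenomedullin) averaged 1.76, 1.33 and 0.692 FPKM, with a difference of -0.72 between metastases and N134 tumours (adjusted p = 0.0803). Egln3, an oxygen-sensing prolyl hydroxylase, and Ankrd37 overlapped between all groups, at 0.558 to 2.29 FPKM and 8.84 to 21.2 FPKM.

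Car9, among the most hypoxia-dependent of these genes, was at most 0.137 FPKM in any library and at 0 in metastasis 1, and is not interpretable at this depth. In the list of 32 further hypoxia genes, 29 were tested. None was called between N134-RHAMMB and N134 tumours, where their median was -0.15. In the metastases Epas1 (HIF-2 alpha), which endothelium and liver express, read 3.91, 3.65 and 3.64 FPKM against 1.27, 1.17 and 1.80 FPKM in the N134-RHAMMB tumours, a difference of 0.98 (adjusted p = 0.00516). Bhlhe40 was the other gene called higher there (0.95, adjusted p = 0.0468) and Lox, a collagen crosslinking enzyme, the only one lower (-1.12, adjusted p = 0.0416). These 2 higher and 1 lower of the 29 stand beside 5.04% of all genes called higher and 1.52% lower.

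The calls of Bhlhe40 and Lox were close to the threshold. Bhlhe40 lost its call without any 1 of 8 libraries and Lox without any 1 of 7, with adjusted p-values up to 0.123 and 0.139. Against the N134 tumours Epas1 alone was called higher and Lox alone lower (-1.56), beside 5.69% and 4.23% of all genes. The call of Epas1 there was lost without N134 tumour 2 (adjusted p = 0.0869) or metastasis 1 (0.0548).

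The remaining enzymes and kinases of the pathway bracket these results. Of 16 further glycolysis genes 14 were tested, and 0 were called between N134-RHAMMB and N134 tumours. In the metastases 3 were called higher and 1 lower in both comparisons, beside 5.04% and 1.52% of all genes against the N134-RHAMMB tumours and 5.69% and 4.23% against the N134 tumours: besides Slc16a7 these were Ldhd, the D-lactate dehydrogenase (2.07, adjusted p = 0.000116 against the N134-RHAMMB tumours), Galm, which interconverts the anomers of galactose and glucose (1.72, adjusted p = 9.16e-05), and Bpgm, the red cell bisphosphoglycerate mutase (-0.71, adjusted p = 0.0321). Per 1000 FPKM of hepatocyte markers, Ldhd stood at 1.73, 2.95 and 1.85 FPKM in metastases 1, 2 and 3. Galm stood at 0.850, 0.748 and 0.939 FPKM. The part of hepatocyte RNA in these calls was not tested. Slc16a7 and Galm, like Fbp1 and Pck1, met the limit for testing only through the metastases. Bpgm kept its call against the N134 tumours when any 1 library was left out, but against the N134-RHAMMB tumours lost it without any 1 of 5 libraries: N134 tumour 2, both N134-RHAMMB tumours 2 and 4 each in turn, and the first 2 metastases (adjusted p from 0.0568 to 0.123).

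Neither the 8 tested genes of a further gluconeogenesis list nor the 11 of pyruvate entry to the mitochondria held a call in any comparison. Pcx (pyruvate carboxylase), which feeds oxaloacetate in both islet and liver, averaged 30.2, 30.4 and 37.3 FPKM. Pck2, the mitochondrial counterpart of Pck1, averaged 10.7, 13.1 and 15.3 FPKM and took 74.6% ± 6.53 of the carboxykinase FPKM in the metastases, against 93.5% ± 3.36 in the N134 tumours (SD, n = 3 each).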

How the data were processed

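RNA of 9 mouse tumour libraries was sequenced, 3 per group. The deposited table holds FPKM values that the authors made with bcl2fastq 2.19, STAR 2.5.2 and Cufflinks 2.1.1 on GRCm38, per the submitters' processing notes. It has 22053 rows; 7 with a failed estimate and 102 repeats of a symbol (keeping the highest mean) were left out. The table's starts are 1 below the annotated ones for 82.2% of 21887 matched genes, so 1 was added. FPKM is relative to each library's total, so abundant transcripts of another tissue lower all others.

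From these values log2(FPKM + 1) was tested with limma 3.58.1 (R 4.3.3) in 1 linear model over the 9 libraries, with a trend, without a replicate block, 2-sided and with Benjamini-Hochberg adjustment over the 12854 genes at 1 FPKM in at least 3 libraries. Differences on this scale understate the change of low genes. SE and 95% intervals come from the same fit. With 3 against 3 libraries an exact permutation test of 1 value cannot go below 0.1, so none was used. The fit was tested on simulated data. Tables of shares and levels were made with Python 3.11.15 and pandas 2.3.3. The members, gene lists and cell markers were chosen with earlier results of these data known. Members that passed in any comparison, and Ldha, Slc16a1, Hk1, Hk2, Hif1a, Fbp1, Pck1 and G6pc, are given by library; of other lists, counts and the genes with the largest differences. Some genes of these lists are not reported here and are left out of their counts. The adipocyte, endothelial and keratinocyte marker lists summed to 13.7 to 100.4, 82.9 to 127 and 4.46 to 17.5 FPKM. In all, 20 alternatives of scaling, pseudocount, filter, model and libraries were run.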

Additional observations from a re-analysis of the deposited data

How the results depend on the processing

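Of the members, Fbp1 was called in every alternative that could test it, in both comparisons of the metastases, and the other calls depended on the setting. No called member changed sign. With 3 libraries a group, 1 library decides most calls near the threshold, and values under about 0.1 FPKM rest on a few fragments. Between N134-RHAMMB and N134 tumours, 0 members were called lower or higher, but library weights gave 5 lower and 3 higher, and a fit of the 2 groups alone 1 lower (Pfkl). Leaving out 1 library gave 0 to 1 lower. All genes called numbered 25, and 14 with no filter on low values, 15 with genes under a mean of 5 FPKM left out, 169 in the 2 groups alone, 2629 with library weights, 1 without N134-RHAMMB tumours 2 and 4, and 0 to 193 with 1 library left out. Without any 1 of the N134 tumours the count was 0, beside 1091 to 1322 genes at an unadjusted p below 0.05.

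Between metastases and N134-RHAMMB tumours the 2 members called higher became 1 with no filter or without N134-RHAMMB tumours 2 and 4, 0 at a mean of at least 5 FPKM, where neither Fbp1 nor Pck1 is tested, and 1 to 3 with 1 library left out (Ldha joined without N134 tumour 2 and Pklr without metastasis 2). All genes called numbered 843, and 347 at a mean of at least 5 FPKM, 1950 with library weights and 504 without N134-RHAMMB tumours 2 and 4. Between metastases and N134 tumours the 2 called higher became 1 with a pseudocount of 0.1 or no filter, 0 at a mean of at least 5 FPKM, and 1 to 3 with 1 library left out. The 3 called lower became 1 with median-of-ratios scaling, rescaling without hepatocyte-restricted genes or no trend, 6 with quantile normalization, and 0 in the 2 groups alone or without N134-RHAMMB tumours 2 and 4. With 1 library left out they numbered 0 to 4. All genes called fell from 1276 to 594 at a mean of at least 5 FPKM.

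Same-numbered libraries deviated from their group means with correlations from -0.0027 to 0.102, mostly positive. Those of differently numbered libraries were mostly negative but reached both below and above this range. With 3 libraries a group, such small correlations cannot decide whether the numbers pair the samples, and the labels do not state it. With the replicate block, members called higher between metastases and N134-RHAMMB tumours were 1 (Fbp1), those called lower between metastases and N134 tumours 1 (Pkm), and all genes called between N134-RHAMMB and N134 tumours 1.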

Other observations

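A pair of genes outside the members, named here after their values were seen, stood at the extremes in metastasis 2. Slc2a2, the glucose carrier of beta cells and liver, read 61.2, 12.9 and 168 FPKM in metastases 1, 2 and 3, and G6pc2, the islet glucose-6-phosphatase, 355, 826 and 381 FPKM. The tumours under the skin lay between 39.1 and 155 FPKM for Slc2a2 and between 338 and 524 FPKM for G6pc2, so metastasis 2 was below all of them for Slc2a2 and above all for G6pc2. Neither gene passed in any comparison.

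Slc2a2 read 155, 120 and 126 FPKM in the N134 group and 77.9, 59.5 and 39.1 FPKM in the N134-RHAMMB group. These groups did not overlap, as for 11.3% of all genes tested in that direction, but the log2 difference of -1.21 did not pass (SE 0.69, limma adjusted p = 0.501).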
